A study of Mus musculus with 18 samples.

Results

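Colony-forming erythroid progenitors (CFU-E) were compared with multipotent progenitors (MPP) from mouse spleens. The mice had been lethally irradiated and given whole, unfractionated marrow 8 days earlier. The comparison used 6 of the 18 samples of the series, 3 RNA libraries of each population, and 3 stress spleen burst-forming erythroid progenitor (BFU-E) libraries were fitted beside them. All 9 came from the strain background B6SJL. The donor marrow was not fractionated, so the sorted cells are whatever descended from it or survived in the host. Cells were depleted of lineage-positive cells (B220, CD4, CD8, Gr-1, Ter-119) and sorted by surface antigens. Under their sample names the MPP are the Sca1-positive sort, the BFU-E the Sca1-negative sort and the CFU-E the CD9-negative sort. No untreated or unirradiated MPP or CFU-E were among the samples, so every value describes the stressed spleen. The labels do not say that the 3 libraries of a population came from separate animals, and p-values then measure only the spread between these libraries.

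An MPP can still give rise to every blood lineage, whereas a CFU-E is committed to the red cell line, depends on erythropoietin and is about to begin the divisions that fill the cell with haemoglobin. Between them, transcription factors of the GATA and KLF families take over genes of haem, iron and the spectrin membrane skeleton, and the stem cell factors of the HOX, MEIS and ETS families are turned down. Megakaryocytes, the cells that shed platelets, arise near the same branch and share several regulators with the red cell line. In the irradiated mouse the spleen carries much of the rapid red cell recovery.

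The MPP libraries held 5937778 to 13197159 counts and the CFU-E libraries 9884686 to 12663624, of 24072 genes in the table. Counts of the pre-ribosomal transcript Rn45s made up 16.0% to 22.6% of MPP and 10.3% to 12.9% of CFU-E libraries. Libraries of 1 population correlated with each other at 0.917 to 0.956, and MPP with CFU-E libraries at 0.777 to 0.832 (Pearson's r of log2 CPM across genes, which are not independent replicates). Levels in CPM are counts divided by the library total, corrected by TMM, on a per-megaread scale. Of 10166 genes with a mean of at least 50 counts over the 9 libraries, 2924 passed an adjusted p of 0.05 (edgeR quasi-likelihood test, Benjamini-Hochberg), which is 28.8% of the genes tested. Of these, 1294 (12.7%) were higher and 1630 (16%) were lower in CFU-E. A test against a 2-fold difference (edgeR glmTreat) called 626 genes (6.16%). Only 129 of those (1.27%) were higher in CFU-E and 497 (4.89%) were lower. The 3 libraries of CFU-E and of MPP did not overlap in 4106 genes (40.4%). The median log2 fold change over all genes was -0.00. Where values per library are given below for both populations, their 3 libraries did not overlap unless this is said. In bulk RNA, fewer cells of a type and less RNA per cell cannot be told apart.

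**Figure D1:**
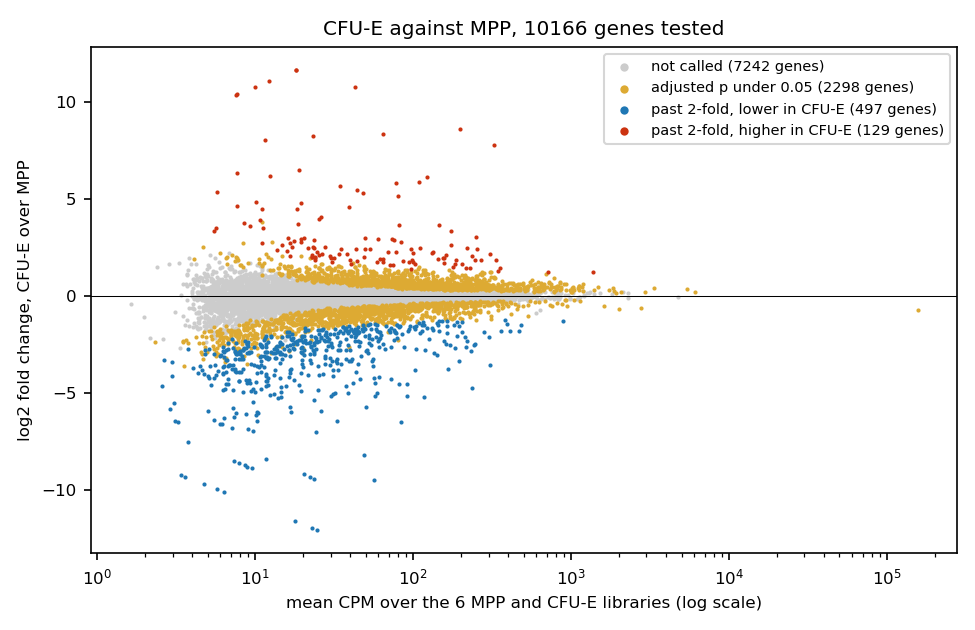
Each point is 1 of the 10166 genes tested, with the mean CPM over the 6 MPP and CFU-E libraries on a log axis and the log2 fold change of CFU-E over MPP on the other. Of the genes past 2-fold, 497 lie below 0 and 129 above it.

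Among the antigens named in the sorting protocol, the Sca1 gene Ly6a (chromosome 15) measured 20.3, 20.7 and 18.3 CPM in the MPP libraries and 1.32, 3.98 and 0.508 CPM in the CFU-E libraries. Every MPP library was above every CFU-E library (log2 fold change -3.34, SE 0.77, edgeR adjusted p = 0.0024). The tetraspanin Cd9 measured 84.4, 74.8 and 80.1 CPM in the MPP libraries and 27.05, 16.1 and 13.1 CPM in the CFU-E libraries, again without overlap (log2 fold change -2.08, SE 0.21, edgeR adjusted p = 1.7e-07). The transferrin receptor gene Tfrc, which encodes CD71, went the other way, with 103, 65.1 and 78.03 CPM in the MPP libraries and 336, 257 and 287 CPM in the CFU-E libraries (log2 fold change 1.83, SE 0.16, edgeR adjusted p = 1.6e-08). Cd24a was higher by 0.66 and the CD150 gene Slamf1 lower by 1.35 on the log2 scale. The receptor tyrosine kinase Kit, the stem cell factor receptor, also among the sorting antibodies, measured 401, 454 and 437 CPM in the MPP libraries and 486, 453 and 537 CPM in the CFU-E libraries, and the groups overlapped (log2 fold change 0.19, SE 0.11, edgeR adjusted p = 0.21). The CD133 gene Prom1 was below the filter, with 48, 0 and 4 counts in the MPP libraries and 0 in all CFU-E libraries, so the groups overlapped at 0. Leaving out CFU-E 2 or CFU-E 3 moved the log2 fold change of Ly6a to -4.39 or -2.90, and its level in CFU-E rests on few counts. The genes used to gate the cells are a check of the labels and no finding.

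Erythroid transcription regulators were mostly higher in CFU-E: 12 of 20 members tested passed in that direction and 1 in the other (median log2 fold change 0.54). Klf1, the Krüppel-like factor that switches on globin, haem and membrane genes, stood apart in size, with 10.9, 7.77 and 17.5 CPM in the MPP libraries and 171, 139 and 142 CPM in the CFU-E libraries (log2 fold change 3.63, SE 0.24, edgeR adjusted p = 4.2e-10). It lies on chromosome 8, 84901928 to 84905295 (mm10). Its BFU-E libraries lay between, at 28.1, 24.2 and 33.4 CPM. Myb, which keeps erythroid progenitors proliferating, was already abundant in MPP and measured 785, 823 and 849 CPM in the MPP libraries and 1799.8, 1905 and 2107 CPM in the CFU-E libraries (log2 fold change 1.24, SE 0.08, edgeR adjusted p = 2.0e-10). Ikzf1, the zinc finger factor Ikaros, was higher by 1.28 and Tcf3, which encodes the E proteins that pair with TAL1, by 0.74 on the log2 scale. The bridging factor Lmo2 was the member called lower, with 614, 616 and 634 CPM in the MPP libraries and 462, 425 and 457 CPM in the CFU-E libraries (log2 fold change -0.47, SE 0.08, edgeR adjusted p = 1.4e-04).

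On the length-scaled RPKM of the authors, the GATA factors drew nearer to each other without changing places. Gata1, the erythroid and megakaryocyte member, measured 21.7, 14.9 and 26.2 RPKM in MPP and 48.6, 44.7 and 42.99 RPKM in CFU-E. Gata2, the stem and progenitor member, measured 87.96, 78.1 and 72.4 RPKM in MPP and 56.8, 47.7 and 58.6 RPKM in CFU-E, so Gata2 stayed above Gata1 in each CFU-E library, with means of 54.3 ± 5.86 against 45.4 ± 2.85 RPKM (SD, n = 3). In the count fit, Gata1 was higher by 1.15 and Gata2 lower by 0.50 on the log2 scale, and both passed. Klf1 and the ETS factor Fli1, which drives megakaryocyte genes, did change places. Fli1 measured 59.2, 40.01 and 53.2 RPKM in MPP and 8.98, 8.89 and 8.17 RPKM in CFU-E, against 4.19, 2.68 and 6.23 RPKM in MPP and 64.2, 49.7 and 46.1 in CFU-E for Klf1.

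**Figure D2:**
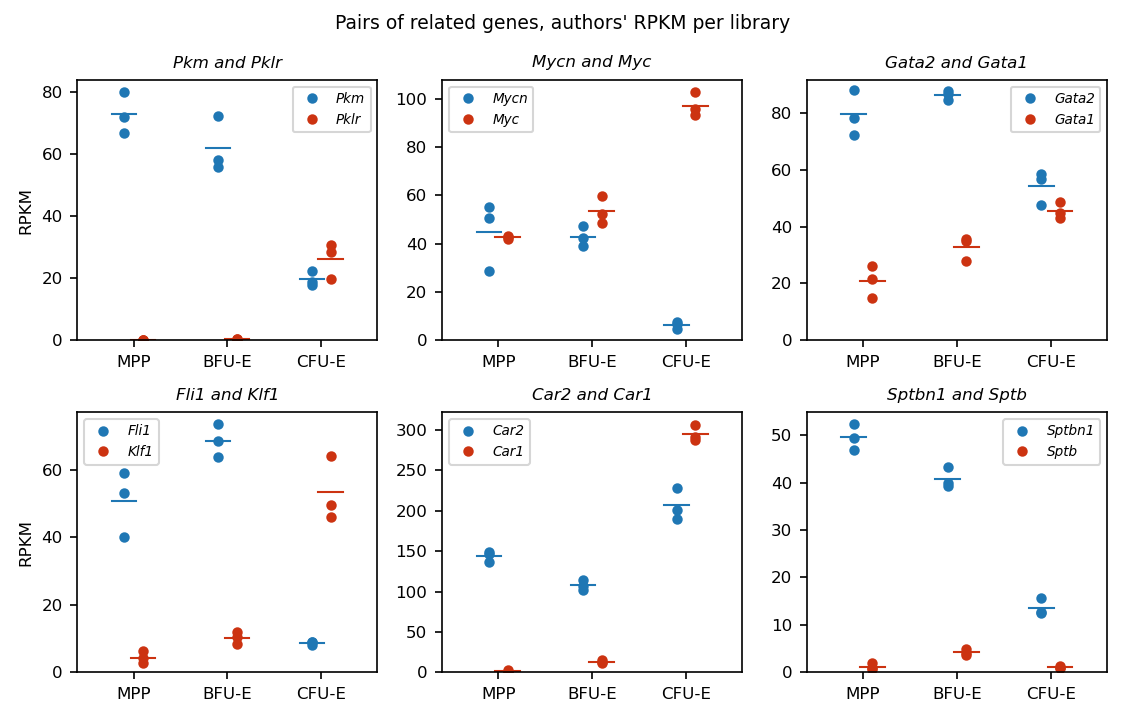
Authors' RPKM of 6 gene pairs on a linear axis in the 3 MPP, 3 BFU-E and 3 CFU-E libraries. Points are libraries and bars are means. The CFU-E means of Pklr, Myc, Klf1 and Car1 (red) lie above those of their partners (blue), and those of Gata1 and Sptb do not.

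Some of the largest differences were in genes of the red cell membrane. Of 27 tested members of a list of skeleton, transport and blood group genes, 14 were higher and 7 lower in CFU-E, and 8 of the higher ones passed the 2-fold test (median log2 fold change 0.52). Ermap, the membrane protein that carries the Scianna blood group, measured 0.233, 0.173 and 2.84 CPM in the MPP libraries and 379, 421 and 380.0 CPM in the CFU-E libraries (log2 fold change 8.60, SE 0.42, edgeR adjusted p = 2.7e-12; chromosome 4, 119175457 to 119190011). Add2, beta-adducin, which caps the short actin filaments of the skeleton, measured 0.0776, 0 and 0 CPM in the MPP libraries and 82.5, 95.4 and 79.1 CPM in the CFU-E libraries (log2 fold change 10.77, SE 0.53, edgeR adjusted p = 2.7e-12; chromosome 6, 86078048 to 86124409). Ank1, the ankyrin that ties spectrin to the band 3 anion exchanger, measured 3.88, 0.518 and 5.16 CPM in the MPP libraries and 227, 275 and 224 CPM in the CFU-E libraries (log2 fold change 6.15, SE 0.32, edgeR adjusted p = 5.2e-12; chromosome 8, 23035099 to 23150497). In these genes every CFU-E library lay far above every MPP library, and the MPP levels rested on few counts, from 0 to 50 per library.

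Tspo2, an erythroid transmembrane protein of the translocator family, had 0 counts in all MPP libraries and 34.2, 40.4 and 34.7 CPM in CFU-E. Against a floor of 3 counts over the MPP group it was at least 321-fold higher (edgeR adjusted p = 2.3e-09). The Kell blood group protease Kel measured 1.16, 6.91 and 1.29 CPM in the MPP libraries and 34.95, 51.1 and 60.6 CPM in the CFU-E libraries (log2 fold change 4.07, SE 0.56, edgeR adjusted p = 1.1e-05). Rhag, the Rh-associated glycoprotein, was singled out after its values were seen and measured 1.71, 0 and 0 CPM in the MPP libraries and 19.1, 18.7 and 21.05 CPM in the CFU-E libraries (log2 fold change 4.83, SE 0.97, edgeR adjusted p = 6.8e-04). Leaving out 1 MPP library moved these log2 fold changes by over 1.5-fold. They ran from 7.87 (without MPP 1) to 10.78 (without MPP 3) for Ermap and up to 12.83 (without MPP 1) for Add2. Kel reached 5.31 without MPP 2 and Rhag 10.70 without MPP 1, and each stayed called.

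The other direction held members too. The tropomodulin Tmod1, which caps the pointed actin ends, fell by 1.77 to 9.87 ± 2.23 CPM (SD, n = 3) and the exporter Abcg2 by 0.91 to 35.1 ± 7.08. The John Milton Hagen blood group gene Sema7a had 13.7, 15.03 and 5.67 CPM in MPP and 0 counts in all CFU-E libraries. By RPKM the non-erythroid spectrin Sptbn1 measured 52.2, 49.5 and 46.9 RPKM in MPP and 15.7, 12.8 and 12.5 RPKM in CFU-E. The erythroid beta-spectrin Sptb overlapped between MPP and CFU-E, with 2.01, 0.845 and 0.697 RPKM in MPP and 1.03, 1.40 and 0.941 RPKM in CFU-E, and was highest in BFU-E, with 4.96, 4.04 and 3.65 RPKM. Sptbn1 thus remained the more abundant beta-spectrin mRNA in these CFU-E on the RPKM scale. The MPP Sptbn1 libraries lay above the CFU-E libraries without overlap (log2 fold change -1.83, SE 0.09, edgeR adjusted p = 2.7e-12).

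**Figure D3:**
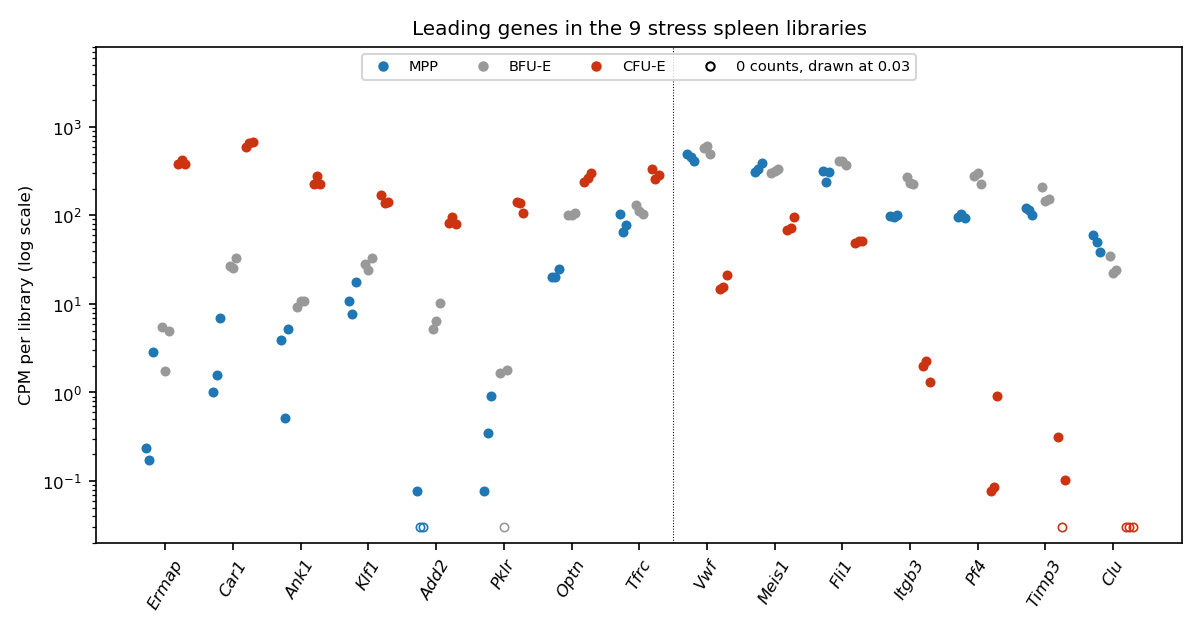
CPM of 15 genes on a log axis in each MPP (blue), BFU-E (grey) and CFU-E (red) library, with genes higher in CFU-E left of the dotted line. In each gene drawn the 3 CFU-E libraries lie on 1 side of all MPP libraries, and open points are libraries with 0 counts.

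The start sites of 5 of the genes higher in CFU-E differed from each other in accessibility in the stress BFU-E, as described below. Upstream sequences of these genes are shown. They are taken from RefSeq (GRCm38.p6) and written 5′ to 3′ along the gene's own strand. They hold only bases before both the RefSeq start site and the start of the counted transcript. Capitals mark the GATA-type letters GATAA or, on the other strand, TTATC, and the ETS-type letters AGGAAG or CTTCCT. The genes were picked after their values and sequences were seen.
Klf1, GRCm38.p6, chr8:84901732-84901927, plus strand: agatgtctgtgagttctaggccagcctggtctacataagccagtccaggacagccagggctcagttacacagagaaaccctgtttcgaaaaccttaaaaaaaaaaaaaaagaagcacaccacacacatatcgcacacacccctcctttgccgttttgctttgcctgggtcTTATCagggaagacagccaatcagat
Ermap, GRCm38.p6, chr4:119190012-119190245, minus strand: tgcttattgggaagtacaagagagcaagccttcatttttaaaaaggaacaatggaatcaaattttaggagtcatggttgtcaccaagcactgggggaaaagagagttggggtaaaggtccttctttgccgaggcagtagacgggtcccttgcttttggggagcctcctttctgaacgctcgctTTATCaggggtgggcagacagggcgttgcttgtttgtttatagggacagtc
Rhag, GRCm38.p6, chr17:40810899-40811148, plus strand: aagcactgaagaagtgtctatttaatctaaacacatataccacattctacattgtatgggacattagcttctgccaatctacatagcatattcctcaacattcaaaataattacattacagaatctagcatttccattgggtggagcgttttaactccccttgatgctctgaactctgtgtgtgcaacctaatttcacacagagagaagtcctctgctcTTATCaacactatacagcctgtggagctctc
Pklr, GRCm38.p6, chr3:89135892-89136141, plus strand: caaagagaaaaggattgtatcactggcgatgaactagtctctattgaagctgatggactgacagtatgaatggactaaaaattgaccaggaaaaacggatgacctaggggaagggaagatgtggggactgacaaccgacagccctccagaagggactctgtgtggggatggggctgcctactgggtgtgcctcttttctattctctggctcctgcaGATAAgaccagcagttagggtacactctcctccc
Kel, GRCm38.p6, chr6:41704326-41704575, minus strand: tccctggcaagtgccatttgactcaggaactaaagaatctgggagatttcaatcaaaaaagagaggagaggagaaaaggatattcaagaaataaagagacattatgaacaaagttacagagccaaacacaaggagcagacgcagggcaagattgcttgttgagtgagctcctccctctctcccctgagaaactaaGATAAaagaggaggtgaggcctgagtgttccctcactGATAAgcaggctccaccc

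Each of these 5 windows held at least 1 GATA-type match and none held an ETS-type match, which was set by choosing them with their sequences known. The match nearest the start began at -18 in Kel, -31 in Rhag, -34 in Pklr, -67 in Ermap and -80 in Klf1, counted in bases from the RefSeq start site. In Klf1 and Ermap the counted transcript starts upstream of the RefSeq start site. Their sequences were therefore cut to 196 and 234 bases, and their matches lie closer to the end shown than these positions. Over the 250 bases upstream of the start, with 7494 of the 10166 tested genes matched to a RefSeq promoter, 13.8% held GATAA on either strand. The share was 22.1% (21 of 95) for genes past 2-fold higher in CFU-E and 16.1% (56 of 347) for genes past 2-fold lower. The longer form AGATAA, whose matches are also matches to GATAA, was in 5.31% of all these promoters, 10.5% of the higher and 5.19% of the lower ones. The KLF-type letters CCNCNCCC were in 65.4%, 67.4% and 69.5%. These are descriptions of letters, with no test, and a match is not a bound site.

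Genes of iron handling were higher as a group: 11 of 18 tested were called higher and 0 lower (median log2 fold change 0.45). Among the 11 was Tfrc, the gene of the sorting antigen CD71. Besides Tfrc, the endosomal iron reductase Steap3 measured 25.6, 22.98 and 31.3 CPM in the MPP libraries and 142, 133 and 111 CPM in the CFU-E libraries (log2 fold change 2.27, SE 0.18, edgeR adjusted p = 4.4e-09). Slc11a2, the DMT1 transporter that moves iron out of the endosome, was higher by 2.04. Slc40a1, the iron exporter ferroportin, measured 2.95, 0.864 and 0.645 CPM in the MPP libraries and 34.3, 33.3 and 37.8 CPM in the CFU-E libraries (log2 fold change 4.45, SE 0.57, edgeR adjusted p = 4.2e-06), and reached 5.54 without MPP 1. Import and export genes were thus both higher. With MPP 1 left out, 10 iron genes were called higher and 1 lower. For haem synthesis, 6 of 16 were called higher and 0 lower (median log2 fold change 0.55), a share of 37.5% against 28.8% of all genes. Cpox, coproporphyrinogen oxidase, measured 57.1, 52.9 and 69.8 CPM in the MPP libraries and 268, 293 and 221 CPM in the CFU-E libraries (log2 fold change 2.12, SE 0.14, edgeR adjusted p = 4.0e-10). Alad, which makes porphobilinogen, measured 36.00, 51.1 and 68.5 CPM in the MPP libraries and 137, 139 and 118 CPM in the CFU-E libraries (log2 fold change 1.34, SE 0.20, edgeR adjusted p = 2.1e-05), and Tmem14c, needed for porphyrin import into mitochondria, was higher by 1.01. Alad and Cpox in BFU-E, at 38.7 ± 2.15 and 87.3 ± 1.60 CPM (SD, n = 3), were nearer MPP than CFU-E.

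Globin genes could not be tested. None of 11 in the table passed the filter, and no library held more than 143 counts of any of them. The beta-globin copies are near-identical and the authors' counting could split or discard their reads. Hbb-b1 and Hbb-bs had the same counts in all 9 libraries, as had Hba-a1 and Hba-a2, and Hbb-b2 and Hbb-bt had nearly the same. The same reads thus appear to be counted under both names. The sum over all 11 entries, which holds such reads more than once, was 10.1 to 21.97 CPM in MPP and 1.42 to 20.8 CPM in CFU-E. The CFU-E range of this sum overlapped that of MPP.

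Of 9 tested carbonic anhydrase and metallothionein genes, 4 were higher and 0 lower in CFU-E. Car1, a red cell carbonic anhydrase, measured 1.01, 1.55 and 6.96 CPM in the MPP libraries and 595, 658 and 680.4 CPM in the CFU-E libraries (log2 fold change 7.75, SE 0.34, edgeR adjusted p = 4.5e-13; chromosome 3, 14766214 to 14778460). Without MPP 3, which was the highest MPP library, its log2 fold change was 9.08, and without MPP 1 it was 7.14. By RPKM, Car1 lay below Car2 in every MPP library and above it in every CFU-E library: Car2 measured 149, 137 and 147 RPKM in MPP and 228, 201 and 190.2 RPKM in CFU-E, and Car1 0.506, 0.698 and 3.22 and 292, 306 and 287 RPKM. The zinc-binding metallothionein Mt2 measured 4.73, 3.80 and 0.645 CPM in the MPP libraries and 71.8, 87.5 and 68.4 CPM in the CFU-E libraries (log2 fold change 4.59, SE 0.47, edgeR adjusted p = 2.0e-07) and its neighbour Mt1 37.5, 64.4 and 40.1 CPM in the MPP libraries and 237, 239 and 188 CPM in the CFU-E libraries (log2 fold change 2.24, SE 0.20, edgeR adjusted p = 2.6e-08). In both metallothioneins the BFU-E values, 51.1 ± 10.6 CPM for Mt1 and 3.29 ± 1.69 for Mt2 (SD, n = 3), lay within or close to the MPP range.

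The pyruvate kinase genes, which make the last step of glycolysis, differed in opposite directions. Pklr, the red cell and liver form, measured 0.0776, 0.346 and 0.903 CPM in the MPP libraries and 141, 137 and 106 CPM in the CFU-E libraries (log2 fold change 8.32, SE 0.58, edgeR adjusted p = 6.2e-10), running from 7.57 without MPP 1 to 9.53 without MPP 3. Pkm, the form of most proliferating cells, measured 327, 306 and 320.0 CPM in the MPP libraries and 93.2, 78.1 and 91.7 CPM in the CFU-E libraries (log2 fold change -1.86, SE 0.12, edgeR adjusted p = 1.4e-10). By RPKM the sum was lower in CFU-E, since Pkm alone averaged 72.8 ± 6.53 RPKM in MPP, against 19.6 ± 2.34 for Pkm and 26.2 ± 5.67 for Pklr in CFU-E (SD, n = 3). Of 24 tested genes of glycolysis and the pentose phosphate path, 10 were higher and 5 lower (62.5% called, against 28.8% of all genes). G6pdx and Taldo1 of the pentose phosphate path were higher by 1.08 and by 1.09. The glucose transporters Slc2a1 and Slc2a3 fell by 1.76 and by 1.04 on the log2 scale. Of 13 tested hypoxia-response genes, 0 were higher and 4 lower, among them the oxygen sensor Egln3 (-3.49) and the pyruvate dehydrogenase kinase Pdk1 (-1.02). That is 30.8% called, near the 28.8% of all genes.

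In several lists of biosynthesis and protein folding, many members were higher by small amounts. In ribosome biogenesis, 23 of 32 were called higher and 0 lower (median log2 fold change 0.50). Nucleolin, Ncl, one of the most abundant of them, measured 4477, 4856 and 4765 CPM in the MPP libraries and 6141, 6126 and 6033 CPM in the CFU-E libraries (log2 fold change 0.38, SE 0.05, edgeR adjusted p = 2.6e-06). The small nucleolar ribonucleoprotein Rrp9 was higher by 0.93 and the nucleolar scaffold Heatr1 by 0.79. Of 22 cytosolic and mitochondrial chaperone genes, 19 were higher and 0 lower (median log2 fold change 0.39), with the mitochondrial pair Hspd1 and Hspe1 higher by 0.77 and by 0.81. With any 1 library left out, 15 to 18 of the chaperone genes were called higher. For nucleotide and one-carbon synthesis the count was 18 of 36 higher and 0 lower (median log2 fold change 0.39; 10 of 36 without CFU-E 1). Mthfd1, the folate enzyme that supplies purine synthesis, measured 201, 176 and 202 CPM in the MPP libraries and 566, 527 and 462 CPM in the CFU-E libraries (log2 fold change 1.42, SE 0.11, edgeR adjusted p = 2.4e-09). Antioxidant genes gave 13 of 24 higher and 0 lower (median log2 fold change 0.58), among them Nqo1 (2.74), Txnrd2 (1.42) and the glutathione synthesis subunit Gclm (1.22). Cholesterol and fatty acid synthesis gave 1 of 27 higher and 5 lower (median log2 fold change 0.03), a share of 22.2% called against 28.8% of all genes. The higher one was lanosterol synthase, Lss (1.03), which was not called without MPP 2 or CFU-E 1. The lower ones included the fatty acid desaturases Fads2 (-1.13) and Fads1 (-0.81).

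In the larger machineries the medians were of like size and fewer members passed. Called higher were 16 of 50 cytosolic ribosomal protein genes (median log2 fold change 0.33), 14 of 71 mitochondrial ribosomal protein genes (0.35), 19 of 69 genes of oxidative phosphorylation (0.31) and 10 of 38 proteasome genes (0.30). In these 4 lists 0 were called lower, and the shares called in either direction, from 19.7% to 32.0%, lay around the 28.8% of all genes. Without MPP 1, 9 cytosolic ribosomal protein genes and 6 proteasome genes were called, and without CFU-E 1, 6 mitochondrial ribosomal protein genes and 6 proteasome genes. Without CFU-E 2, 7 mitochondrial ribosomal protein genes were called, as without MPP 1, and 6 proteasome genes without BFU-E 3. Ribosomal protein genes have many processed copies, whose reads the authors' counting could split. Of 24 genes of the integrated stress response and tRNA charging, 11 were higher and 0 lower (45.8% called, against 28.8% of all genes). With any 1 library left out, 8 to 10 were called higher. Asparagine synthetase Asns measured 31.7, 13.6 and 18.96 CPM in the MPP libraries and 65.02, 35.6 and 44.9 CPM in the CFU-E libraries (log2 fold change 1.16, SE 0.29, edgeR adjusted p = 0.0044). Of 20 endoplasmic reticulum chaperone and unfolded protein response genes 0 were higher and 4 lower (a smaller share than the 28.8% called of all genes), among them the splicing-activated factor Xbp1 (-1.13) and Dnajc3 (-0.59). That count was 2 lower without MPP 3 or CFU-E 2, and 1 higher and 2 lower with library totals as the only scaling.

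**Figure D4:**
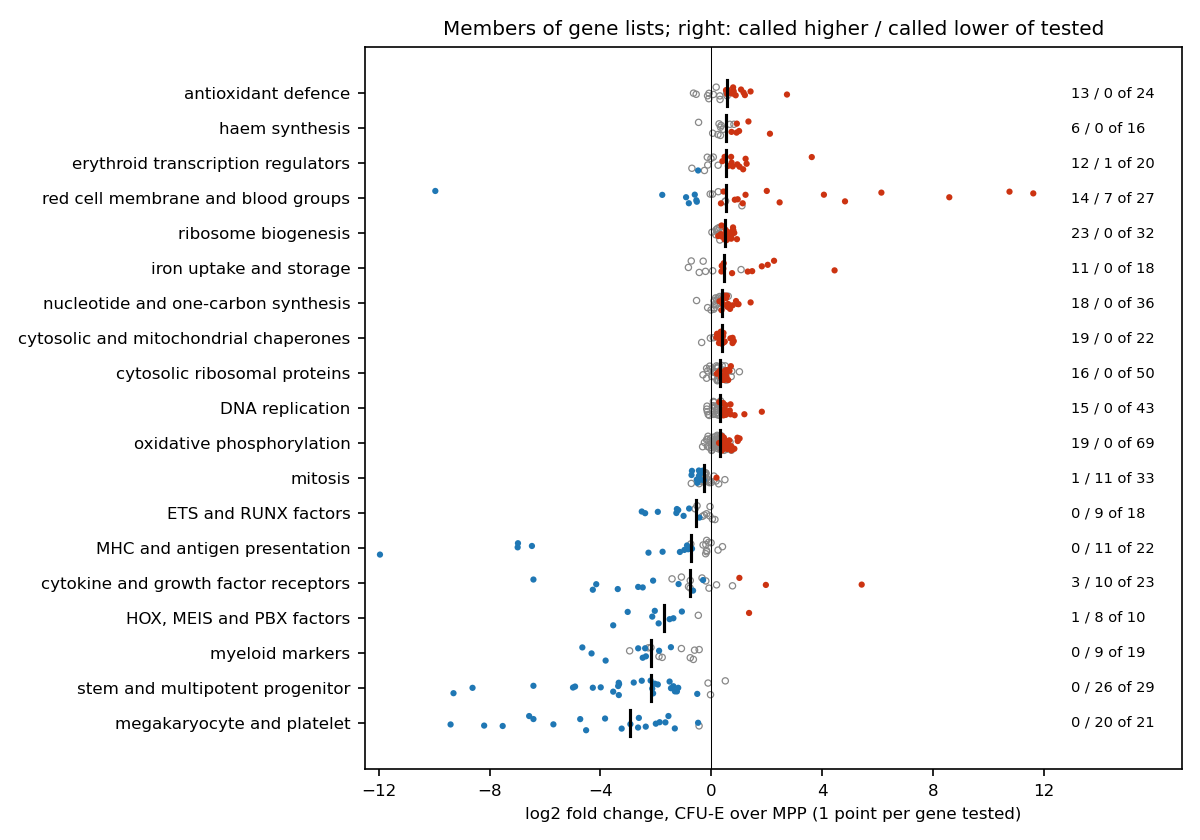
Log2 fold change of CFU-E over MPP for each tested member of 19 gene lists. Filled points passed an adjusted p of 0.05, open points did not, and bars are list medians. The lists of erythroid regulators, haem synthesis, iron and the red cell membrane lie at medians of 0.45 to 0.55, and the stem and megakaryocyte lists at -2.19 and -2.92.

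Of 43 DNA replication genes, 15 were higher in CFU-E and 0 lower (median log2 fold change 0.31). Of 33 mitosis genes 1 was higher and 11 lower (median log2 fold change -0.25). The shares called in either direction were 34.9% and 36.4%, against 28.8% of all genes, and the difference between the lists was not tested. Cyclin E1, Ccne1, which starts S phase, measured 19.5, 18.7 and 14.4 CPM in the MPP libraries and 78.6, 55.03 and 53.3 CPM in the CFU-E libraries (log2 fold change 1.83, SE 0.26, edgeR adjusted p = 1.2e-05). The origin licensing factor Cdc6 measured 42.8, 29.2 and 34.2 CPM in the MPP libraries and 93.4, 57.5 and 93.9 CPM in the CFU-E libraries (log2 fold change 1.20, SE 0.22, edgeR adjusted p = 3.4e-04). On the mitotic side, the cyclin Ccnb2 measured 133, 154 and 127 CPM in the MPP libraries and 72.8, 75.9 and 107 CPM in the CFU-E libraries (log2 fold change -0.70, SE 0.15, edgeR adjusted p = 0.0013), and the spindle midzone kinesin Kif23 fell by 0.71 and the kinetochore protein Nuf2 by 0.52. With library totals as the only scaling, 2 mitosis genes were called higher and 6 lower, and 0 were called higher without MPP 3 or CFU-E 1. The D-type cyclins Ccnd1 and Ccnd3 were lower, -0.76 and -0.61. The mRNAs of replication-dependent histone genes lack a poly(A) tail and are near-identical in places. Of these genes, 8 of 52 were higher and 0 lower (15.4% called, against 28.8% of all genes). That count was 16 without CFU-E 3, 4 without CFU-E 1 (with 1 lower) or CFU-E 2, and 13 with library totals only.

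Among receptors, 3 of 23 cytokine and growth factor receptor genes were higher in CFU-E and 10 lower (median log2 fold change -0.76, 56.5% called against 28.8% of all genes). With any 1 library left out, 3 to 4 were higher and 8 to 9 lower. The 3 higher in the reported fit were Il1rl1, which encodes the interleukin-33 receptor ST2, the interferon-gamma receptor chain Ifngr1 and the erythropoietin receptor Epor. Il1rl1 measured 2.48, 0 and 2.97 CPM in the MPP libraries and 80.2, 76.3 and 101 CPM in the CFU-E libraries (log2 fold change 5.43, SE 0.46, edgeR adjusted p = 1.2e-08), Ifngr1 50.05, 81.4 and 59.7 CPM in the MPP libraries and 220.0, 265 and 261 CPM in the CFU-E libraries (log2 fold change 1.97, SE 0.16, edgeR adjusted p = 4.6e-09) and Epor 19.6, 39.2 and 23.1 CPM in the MPP libraries and 51.5, 61.6 and 51.3 CPM in the CFU-E libraries (log2 fold change 1.02, SE 0.27, edgeR adjusted p = 0.0063). By RPKM, Epor measured 6.33, 11.4 and 6.90 in MPP and 16.3, 18.5 and 14.01 in CFU-E.

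Downstream of erythropoietin, the transcription factor Stat5a was higher by 0.58, with 89.5, 107 and 86.9 CPM in the MPP libraries and 132, 150.3 and 141 CPM in the CFU-E libraries. Of 18 tested genes of the receptor and its STAT5 targets, 3 were higher and 7 lower (median log2 fold change -0.27). The lower ones included genes that STAT5 is known to induce. The survival gene Bcl2l1, which encodes BCL-XL, measured 71.8, 78.1 and 74.03 CPM in the MPP libraries and 19.1, 11.9 and 12.9 CPM in the CFU-E libraries (log2 fold change -2.35, SE 0.21, edgeR adjusted p = 3.4e-08). The feedback inhibitor Socs2 measured 23.2, 25.9 and 31.1 CPM in the MPP libraries and 2.48, 1.19 and 4.78 CPM in the CFU-E libraries (log2 fold change -3.25, SE 0.49, edgeR adjusted p = 3.4e-05; -3.85 without CFU-E 3). The signalling inhibitor Spry1 fell by 3.10 on the log2 scale. In the BCL2 family 0 of 11 tested genes were higher and 4 lower, a share of 36.4% called against 28.8% of all genes. Bcl2 itself measured 114, 88.1 and 151 CPM in the MPP libraries and 42.4, 39.7 and 41.99 CPM in the CFU-E libraries (log2 fold change -1.51, SE 0.18, edgeR adjusted p = 2.4e-06). In BFU-E, Bcl2l1 and Bcl2 were at 78.1 ± 12.6 and 120.4 ± 21.1 CPM (SD, n = 3), near the MPP means of 74.7 ± 3.17 and 118 ± 31.4.

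Genes of the bone morphogenetic protein (BMP) and TGF-beta path, which is known for its part in stress erythropoiesis of the spleen, gave 2 of 24 higher and 9 lower (median log2 fold change -0.52). The share called was 45.8%, against 28.8% of all genes. The latent TGF-beta binding protein Ltbp1 and the repressor Tgif1 were higher, 2.49 and 1.95. Ltbp1 was highest in BFU-E, with 52.1, 83.9 and 59.4 CPM in the BFU-E libraries. Its relative Ltbp3 measured 41.3, 54.1 and 59.1 CPM in the MPP libraries and 8.91, 9.31 and 8.44 CPM in the CFU-E libraries (log2 fold change -2.53, SE 0.25, edgeR adjusted p = 1.6e-07), and the activin receptor Acvr1b fell by 1.75 on the log2 scale. Of 16 tested WNT and hedgehog pathway genes 3 were higher and 5 lower (median log2 fold change -0.12). With any 1 MPP or CFU-E library left out 3 were lower, and without MPP 2, MPP 3 or CFU-E 3 only 1 was higher. The hedgehog receptor Ptch1 measured 49.3, 17.3 and 38.6 CPM in the MPP libraries and 79.8, 68.2 and 70.1 CPM in the CFU-E libraries (log2 fold change 1.04, SE 0.26, edgeR adjusted p = 0.0042), and its signalling partner Smo was lower (-0.57), a call lost without MPP 3, CFU-E 1 or CFU-E 3.

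Stem and multipotent progenitor genes were lower in CFU-E almost throughout: 26 of 29 tested were called lower and 0 higher (median log2 fold change -2.19), and 21 passed the 2-fold test. The members called lower included Ly6a, the gene of the sorting antigen Sca1, whose direction was set by the sort. With MPP 1 or CFU-E 3 left out, or with no filter on low counts, 25 were lower and 1 higher. Fgd5, a guanine exchange factor that marks stem cells, measured 46.2, 49.2 and 37.7 CPM in the MPP libraries and 0, 0 and 0.203 CPM in the CFU-E libraries (log2 fold change -9.31, SE 1.01, edgeR adjusted p = 5.0e-07), and Procr, the endothelial protein C receptor of stem cells, 22.3, 15.2 and 9.93 CPM in the MPP libraries and 0, 0.0847 and 0 CPM in the CFU-E libraries (log2 fold change -8.62, SE 1.07, edgeR adjusted p = 2.8e-06). Both were already low in BFU-E, with 0.299, 5.54 and 0.787 CPM in the BFU-E libraries and 0.150, 0.277 and 0 CPM in the BFU-E libraries. Meis1, a HOX cofactor, measured 309.9, 336 and 387 CPM in the MPP libraries and 69.2, 71.4 and 96.1 CPM in the CFU-E libraries (log2 fold change -2.13, SE 0.13, edgeR adjusted p = 1.1e-10). It was not low in BFU-E, with 298, 318 and 338 CPM in the BFU-E libraries. Over 10 tested HOX, MEIS and PBX genes, 1 was higher and 8 lower (median log2 fold change -1.70). With any 1 library left out, 1 was higher and 6 to 7 lower. Pbx4 was the higher one, with 8.77, 9.68 and 13.4 CPM in the MPP libraries and 22.2, 28.8 and 31.1 CPM in the CFU-E libraries (log2 fold change 1.37, SE 0.37, edgeR adjusted p = 0.0087). For the genes near 0 in CFU-E the size of the fold change was loose: Fgd5 reached -11.93 without CFU-E 3 and Procr -10.42 without CFU-E 2.

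Of 18 ETS and RUNX factor genes, 0 were higher and 9 lower (median log2 fold change -0.55). Fli1 measured 318, 240.0 and 309.7 CPM in the MPP libraries and 49.4, 51.4 and 52.1 CPM in the CFU-E libraries (log2 fold change -2.51, SE 0.12, edgeR adjusted p = 2.7e-12; chromosome 9, 32422204 to 32541452), Erg 163, 168 and 194 CPM in the MPP libraries and 35.6, 46.6 and 56.02 CPM in the CFU-E libraries (log2 fold change -1.93, SE 0.16, edgeR adjusted p = 8.1e-09) and the myeloid factor Spi1, known as PU.1, 45.9, 46.3 and 31.99 CPM in the MPP libraries and 10.5, 3.73 and 9.56 CPM in the CFU-E libraries (log2 fold change -2.39, SE 0.33, edgeR adjusted p = 1.1e-05). In the MYC network 1 of 11 was higher and 2 lower (27.3% called, near the share of all genes). Myc, a driver of growth and proliferation, measured 175, 189 and 188 CPM in the MPP libraries and 397, 449 and 448 CPM in the CFU-E libraries (log2 fold change 1.23, SE 0.11, edgeR adjusted p = 1.6e-08), and its paralogue Mycn 243, 139.8 and 241 CPM in the MPP libraries and 21.2, 35.1 and 33.9 CPM in the CFU-E libraries (log2 fold change -2.80, SE 0.21, edgeR adjusted p = 1.4e-09). By RPKM the paralogues were near each other in MPP, with 43.1, 41.7 and 42.7 for Myc and 55.3, 28.5 and 50.5 for Mycn, and apart in CFU-E, with 95.5, 103 and 93.02 and 4.72, 7.40 and 6.49. In BFU-E they were at 52.4, 48.6 and 59.6 and 39.1, 42.3 and 47.3 RPKM.

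Megakaryocyte and platelet genes had the lowest median of all lists with at least 5 tested members (median log2 fold change -2.92): 20 of 21 tested were lower in CFU-E and 0 higher. Vwf, the platelet and endothelial adhesion factor, was among the most abundant and measured 495, 455 and 411 CPM in the MPP libraries and 14.7, 15.5 and 21.4 CPM in the CFU-E libraries (log2 fold change -4.73, SE 0.15, edgeR adjusted p = 6.9e-15; chromosome 6, 125552948 to 125686679). Pf4, a platelet chemokine, measured 95.4, 105 and 92.3 CPM in the MPP libraries and 0.0775, 0.0847 and 0.915 CPM in the CFU-E libraries (log2 fold change -8.20, SE 0.33, edgeR adjusted p = 1.7e-13), or -10.05 without CFU-E 3. The integrin Itgb3, which with Itga2b forms the platelet fibrinogen receptor, measured 99.3, 96.9 and 102 CPM in the MPP libraries and 2.01, 2.29 and 1.32 CPM in the CFU-E libraries (log2 fold change -5.70, SE 0.19, edgeR adjusted p = 1.9e-14). Thbs1, thrombospondin, measured 29.4, 19.5 and 92.7 CPM in the MPP libraries and 0, 0.0847 and 0.102 CPM in the CFU-E libraries (log2 fold change -9.41, SE 0.72, edgeR adjusted p = 2.6e-09), with MPP 3 the highest library (-8.48 without it). The BFU-E were above the MPP in several of these genes and not between MPP and CFU-E: Pf4 had 282, 305 and 228 CPM in the BFU-E libraries, Itgb3 274, 233 and 227 CPM in the BFU-E libraries and Thbs1 148, 114 and 120.0 CPM in the BFU-E libraries. Over the 21 genes the median log2 fold change was 0.79 for BFU-E over MPP and -3.63 for CFU-E over BFU-E, 2 comparisons that share the BFU-E libraries. For the stem list the same medians were -0.88 and -1.34. The CFU-E were sorted as CD9-negative cells, and the part of that gate in the megakaryocyte difference was not tested.

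The upstream sequences of 2 megakaryocyte genes are given beside those of the red cell genes, with the same capitals and build. These 2 were also picked after their values and sequences were seen, so any contrast in letters was set by the choice.
Pf4, GRCm38.p6, chr5:90772185-90772434, plus strand: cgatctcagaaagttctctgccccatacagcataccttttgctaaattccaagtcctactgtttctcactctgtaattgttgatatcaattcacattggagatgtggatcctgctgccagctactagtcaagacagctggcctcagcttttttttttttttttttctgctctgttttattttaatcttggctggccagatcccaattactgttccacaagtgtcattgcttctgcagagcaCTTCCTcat
Itga2b, GRCm38.p6, chr11:102469884-102470133, minus strand: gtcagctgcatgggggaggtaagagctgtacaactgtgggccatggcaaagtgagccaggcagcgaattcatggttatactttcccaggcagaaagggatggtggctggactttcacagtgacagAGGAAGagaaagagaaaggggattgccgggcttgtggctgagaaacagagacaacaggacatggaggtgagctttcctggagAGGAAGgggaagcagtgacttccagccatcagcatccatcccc

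Pf4 held 1 ETS-type match at -9 and Itga2b 2, at -125 and -43, and neither held GATAA within these 250 bases. AGGAAG on either strand was in 27.7% of all matched promoters, 35.2% (122 of 347) of those of genes past 2-fold lower in CFU-E and 22.1% (21 of 95) of the higher ones. The RUNX-type letters TGTGGT were in 10.4%, 9.80% and 15.8% of them. The median number of CpG pairs was 17 over all promoters and 13 in both past-2-fold sets. Absence of the letters in a window says nothing of the factors.

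Markers of the remaining blood lineages were tested in small numbers apart from the myeloid ones. Both tested mast cell and basophil markers, Il1rl1 and Gzmb, were higher in CFU-E, and Gzmb was not called without CFU-E 2 (edgeR adjusted p = 0.0821). Of macrophage markers 0 of 3 and of T and NK cell markers 0 of 2 were called, and 0 B lymphoid markers passed the filter on low counts. For myeloid markers 0 of 19 tested were higher and 9 lower (median log2 fold change -2.18), but without MPP 1 there were 2 higher and 7 lower. Lyz2, lysozyme, measured 76.6, 50.6 and 59.3 CPM in the MPP libraries and 5.50, 4.23 and 3.46 CPM in the CFU-E libraries (log2 fold change -3.81, SE 0.28, edgeR adjusted p = 1.4e-09). Irf8, the monocyte lineage factor, measured 30.3, 6.39 and 13.3 CPM in the MPP libraries and 0.620, 0.254 and 1.73 CPM in the CFU-E libraries (log2 fold change -4.32, SE 0.66, edgeR adjusted p = 3.5e-05), or -5.22 without CFU-E 3 and -3.55 without MPP 1. Antigen presentation genes gave 11 of 22 lower and 0 higher (median log2 fold change -0.72). The class II gene H2-Aa measured 70.1, 42.5 and 31.6 CPM in the MPP libraries and 0.775, 0.254 and 0 CPM in the CFU-E libraries (log2 fold change -6.99, SE 0.67, edgeR adjusted p = 9.0e-08), with MPP 1 the highest library (-8.34 without CFU-E 1). H2-Eb1 had 76.97, 27.3 and 32.5 CPM in the MPP libraries and 0 counts in all CFU-E libraries, at least 525-fold lower against 3 counts over the CFU-E group (at least 344-fold without MPP 1). The class II transactivator Ciita measured 31.97, 13.3 and 12.3 CPM in the MPP libraries and 0.310, 0.0847 and 0 CPM in the CFU-E libraries (log2 fold change -6.98, SE 1.19, edgeR adjusted p = 1.3e-04; -8.39 without CFU-E 1). Class II genes were also uneven in BFU-E, where H2-Aa had 33.1, 13.4 and 7.79 CPM in the BFU-E libraries. Of 43 interferon-response genes 2 were higher and 7 lower (-0.25), a share of 20.9% called, below that of all genes. The membrane restriction factor Ifitm3 measured 111, 156 and 108 CPM in the MPP libraries and 64.01, 42.2 and 38.2 CPM in the CFU-E libraries (log2 fold change -1.37, SE 0.20, edgeR adjusted p = 1.8e-05).

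Summed marker levels of cells that the sorts could hold moved with the comparison in part. The 26 myeloid markers summed to 237 to 840.1 CPM in MPP and 58.2 to 159.7 CPM in CFU-E. The 14 B lymphoid markers summed to 11.3 to 22.9 CPM in MPP and 2.35 to 5.46 CPM in CFU-E. The 13 T and NK cell markers summed to 54.8 to 62.5 CPM in MPP and 38.2 to 51.1 CPM in CFU-E, and the 16 endothelial and stromal markers to 218 to 259 CPM in MPP and 128 to 129.8 CPM in CFU-E. Only 6 of these 16 passed the filter, with 1 called higher and 3 lower in CFU-E. Below the filter, Cdh5, Col1a1 and Lyve1 had at most 7 counts in any library. The sum of the 14 mast cell and basophil markers was higher in CFU-E, with 11.8 to 27.8 CPM in MPP and 103 to 138 CPM in CFU-E. Of the 14, 6 had 0 counts in all MPP libraries and 7 in all CFU-E libraries. Members below the filter leaned both ways, with overlap. Ms4a2 had 11, 0 and 36 counts in MPP and 66, 42 and 96 in CFU-E, which overlapped once scaled to the library totals. Hdc had 63, 14 and 49 counts in MPP and 31, 5 and 34 in CFU-E, and its groups overlapped. Il1rl1 made up most of the CFU-E sum. The 15 macrophage markers overlapped, with 22.2 to 57.9 CPM in MPP and 36.6 to 50.1 CPM in CFU-E. The part of such cells in the myeloid, class II and endothelial differences was not tested.

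Adhesion and homing genes gave 3 of 21 higher and 11 lower (median log2 fold change -0.54, 66.7% called against 28.8% of all genes). The integrin Itga4, a subunit of VLA-4, measured 431, 454 and 413 CPM in the MPP libraries and 960.4, 998 and 1051 CPM in the CFU-E libraries (log2 fold change 1.21, SE 0.09, edgeR adjusted p = 1.4e-09) and Itgal was higher by 1.17. The cell junction protein Esam fell by 3.99 (-4.62 without CFU-E 1) and the cytoskeletal linker Tln1 by 0.54. Of 26 chromatin regulators 2 were higher and 6 lower, or 4 and 4 with library totals only and without a filter 5 and 4, as also without MPP 3. The 30.8% called lay near the 28.8% of all genes. The de novo methyltransferases Dnmt3a and Dnmt3b measured 239, 235 and 227 CPM in the MPP libraries and 96.02, 99.1 and 88.7 CPM in the CFU-E libraries (log2 fold change -1.30, SE 0.11, edgeR adjusted p = 1.9e-08) and 215, 244 and 198 CPM in the MPP libraries and 95.5, 76.3 and 91.7 CPM in the CFU-E libraries (log2 fold change -1.32, SE 0.13, edgeR adjusted p = 1.4e-07). The 5-methylcytosine oxidase Tet1 fell by 1.66, and the histone deacetylase Hdac7 measured 97.4, 101 and 123 CPM in the MPP libraries and 343, 434 and 386 CPM in the CFU-E libraries (log2 fold change 1.86, SE 0.13, edgeR adjusted p = 7.2e-10). In the 143 tested solute carriers, 21 were higher and 24 lower (31.5% called, near the 28.8% of all genes). Slc38a5, a glutamine transporter, measured 0.310, 0 and 0 CPM in the MPP libraries and 37.9, 53.6 and 48.6 CPM in the CFU-E libraries (log2 fold change 8.22, SE 0.96, edgeR adjusted p = 1.3e-06), or 11.95 without MPP 1. Slc25a21, a mitochondrial carrier of oxodicarboxylates, had 0 counts in all MPP libraries and in 2 of the 3 BFU-E libraries. It measured 38.3, 32.7 and 37.1 CPM in CFU-E, at least 317-fold higher.

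Genes of later red cell maturation gave 4 of 16 higher and 2 lower (median log2 fold change 0.08), and 3 and 1 without CFU-E 3. The share called was 37.5%, against 28.8% of all genes. The lysosomal nuclease Dnase2a was higher by 1.39 and the uncoupling protein Ucp2 by 0.89, while the exportin Xpo7, which acts in nuclear condensation, fell by 0.78. Autophagy and mitophagy genes gave 4 of 24 higher and 1 lower (20.8% called, below the share of all genes), and 1 and 2 without CFU-E 2. Optn, the mitophagy receptor optineurin, had the largest difference of them, with 20.1, 20.4 and 24.6 CPM in the MPP libraries and 237, 266 and 301 CPM in the CFU-E libraries (log2 fold change 3.63, SE 0.15, edgeR adjusted p = 2.1e-13; chromosome 2, 5020642 to 5063938). Its BFU-E libraries lay between, at 102, 101 and 108 CPM. The adaptor Tax1bp1 was the lower one, with 529, 553 and 552 CPM in the MPP libraries and 280.3, 278 and 291 CPM in the CFU-E libraries (log2 fold change -0.94, SE 0.09, edgeR adjusted p = 7.9e-08).

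Several of the largest differences fell in genes of no list. Higher in CFU-E were the sodium pump subunit Atp1b2, with 5.90, 0.346 and 3.61 CPM in the MPP libraries and 215, 240.2 and 186 CPM in the CFU-E libraries (log2 fold change 5.85, SE 0.41, edgeR adjusted p = 7.2e-10), the pseudokinase Trib2, with 0.388, 3.11 and 5.55 CPM in the MPP libraries and 134, 169 and 154 CPM in the CFU-E libraries (log2 fold change 5.79, SE 0.47, edgeR adjusted p = 6.7e-09), and the actin-severing protein Scin, with 7.29, 0.691 and 3.87 CPM in the MPP libraries and 119, 169 and 180.0 CPM in the CFU-E libraries (log2 fold change 5.14, SE 0.36, edgeR adjusted p = 7.2e-10). The collagen gene Col5a1 was higher by 5.64 and the sugar transporter relative Slc45a3 by 5.32 on the log2 scale. Lower were Timp3, a metalloproteinase inhibitor, with 120.2, 116 and 101 CPM in the MPP libraries and 0.310, 0 and 0.102 CPM in the CFU-E libraries (log2 fold change -9.49, SE 0.34, edgeR adjusted p = 4.6e-14), and the phosphodiesterase Pde10a, with 60.1, 57.9 and 36.2 CPM in the MPP libraries and 0.697, 0.931 and 0.915 CPM in the CFU-E libraries (log2 fold change -5.91, SE 0.29, edgeR adjusted p = 3.1e-12). The caveolar protein Sdpr fell by 5.20 and the phosphatase Dusp3 fell by 5.17. The chaperone clusterin, Clu, had 59.8, 50.1 and 38.6 CPM in the MPP libraries and 0 counts in all CFU-E libraries, at least 570.0-fold lower. Over all tested genes, 6 had 0 counts in every MPP library and 8 in every CFU-E library. Leaving out 1 library moved the log2 fold change by over 1.5-fold for Atp1b2 (up to 6.62 without MPP 1), Trib2 (5.10 without MPP 1 and 6.82 without MPP 3), Scin (5.98 without MPP 1), Col5a1 (6.40 without MPP 3) and Timp3 (-10.92 without CFU-E 1). Each stayed called.

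Of 27 small nucleolar RNAs tested, 10 were called lower in CFU-E and 0 higher (median log2 fold change -1.32). The other 17 did not pass, a share of 37.0% called against 28.8% of all genes. The count was 16 without MPP 1 and only 2 (with 1 higher) without MPP 3, and 3 without CFU-E 1 or CFU-E 2. Their share of the counts was 0.0835%, 0.177% and 0.231% in the MPP libraries and 0.0432% to 0.0830% in CFU-E. Snord15b measured 412, 591 and 906 CPM in the MPP libraries and 131, 203 and 209 CPM in the CFU-E libraries (log2 fold change -1.82, SE 0.21, edgeR adjusted p = 8.9e-07). Rn45s, the most abundant non-coding transcript, was lower in CFU-E too, with 194902 ± 47442 CPM in MPP and 117576 ± 14524 in CFU-E (SD, n = 3; log2 fold change -0.73, SE 0.10, edgeR adjusted p = 1.1e-05). The part of these RNAs in other differences was tested only by leaving them out of the fit, which gave 2934 calls.

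Open chromatin was profiled in the stress BFU-E, not in MPP or CFU-E, and the merged list of 61661 intervals was set beside the RNA comparison. At least 1 interval lay within 1 kb of the start in 95.1% of all genes tested. The share was 83.7% (108 of 129) for genes past 2-fold higher in CFU-E and 89.1% (443 of 497) for those past 2-fold lower. The median number of intervals annotated to the gene farther away was 1 for all genes, 3 for the higher and 4 for the lower set. The median BFU-E level of these sets was 39.6, 20.2 and 21.95 CPM, so the past-2-fold sets were also less expressed in BFU-E. Of the genes with an upstream sequence above, Ermap, Rhag, Pklr and Kel had no interval within 1 kb of the start in BFU-E, as had Add2 and Car1. Klf1, Pf4 and Itga2b had 1. Their RNA levels in BFU-E were 4.06 ± 2.01 CPM for Ermap, 1.15 ± 1.00 for Pklr and 5.31 ± 2.77 for Kel, against 28.6 ± 4.65 for Klf1 and 272 ± 39.4 for Pf4 (SD, n = 3). The annotation gave Rhag 4 and Ermap 1 intervals farther from the start.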

How the data were processed

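RNA of sorted spleen cells was measured in 9 stranded total RNA libraries. The tools listed in the submitters' processing notes are Bowtie2 2.3.4.2, DESeq2, HOMER 4.8 and STAR 2.6.0b-1, with build mm10. Per the file headers, exon reads were counted by the authors for 1 transcript a gene. Which strand was counted is not given in the sources used here, so reads of antisense partners could not be told apart. The deposited spleen table holds raw counts per gene, and the deposited RPKM table scales reads to gene length and library size. The authors' merged ATAC peak list of stress BFU-E (117426 entries, 61661 distinct intervals) has a score per peak, which was not used to filter.

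Counts of 10166 genes (mean of at least 50 over the 9 libraries) were fitted in R 4.3.3 with edgeR 4.0.16 (TMM, quasi-likelihood F test, glmTreat against 2-fold), with the 3 populations in 1 fit, which shares their spread, and the contrast CFU-E minus MPP. Every adjusted p is from edgeR over all 10166 genes. The SE is the log2 fold change over the square root of F, which can be too small near 0 counts. Genes at 0 in a group were compared with 3 counts over the group, for counting error only.

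The members and gene lists were chosen with earlier results of these data known, so counts per list are descriptions. Lists of at least 5 tested members given a count but no comparison with all genes had at least 44.4% called, against 28.8% of all genes. Genes were named by rule: the 15 largest differences per direction without overlap and with a mean CPM of at least 20, the 10 largest CPM differences, up to 3 called members per list and direction, and the sorting antigens. The text prints part of them, picked after their values were seen, and a few others as marked. Some genes that the rule names are not reported here. Alternatives were other scalings and filters, DESeq2 1.42.0, a replicate block and leaving out each library. Counts simulated for these 10166 genes had 200 genes changed, as many up as down. In them 62% of 2-fold and 87% of 4-fold changes were recovered, and 10 of 159 calls were false. Far more genes, 2924, were called in the data, so these figures are not the error rates of the comparison itself.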

Additional observations from a re-analysis of the deposited data

How the results depend on the processing

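Against 2924 genes called and 626 past 2-fold, the relative log expression (RLE) factors of edgeR in place of TMM gave 2923 and 626. Library totals without TMM gave 3017 and 595, the DESeq2 Wald test 3177 and 505, and the 6 MPP and CFU-E libraries alone 2555 and 575. Without a filter on low counts there were 3402 and 869 of 16279 genes, with filterByExpr 3181 and 759, without structural non-coding RNA 2934 and 626, and with the filter set by the MPP and CFU-E libraries alone, an alternative chosen after seeing the data, 2880 and 602. Leaving out each library in turn gave 2321 to 2785 called and 568 to 623 past 2-fold. All these counts lay within 1.5 times the reported ones. Library totals without TMM moved the share called higher from 44.3% to 52.3%. The labels number the replicates 1 to 3 in each population, and the count columns of each population are headed Spleen1, Spleen2 and Spleen3. Same-numbered libraries may thus come from the same spleen, which the labels do not state. They deviated together only weakly (r = 0.103, 0.0155 and 0.0720), and the reported fit did not pair them. Each MPP library correlated best with the CFU-E library of its own number, but CFU-E 2 correlated best with MPP 3 (r = 0.0254). With the replicate block 2972 genes were called and 657 were past 2-fold. Of 220 genes that the naming rule took, 178 kept their call and direction in every alternative run, 42 changed a call in at least 1, and none reversed. At this depth, genes near 0 in a population fix the direction but not the size of a difference.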
